A study of Mus musculus with 4 samples.

Results

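Among sorted, MyoD-reporter-high mouse muscle cells in culture, 600 of 5481 kept cells had transcripts of Pax7, little Myog and few or no proliferation transcripts. They made up 10.9% of the kept cells (exact Clopper-Pearson interval 10.1% to 11.8%, counting error only). Members were chosen by measured values: a cell needed at least 2 Pax7 UMIs (unique molecular identifiers, each tagging 1 captured transcript), Myog below 400 CPM (UMIs per 1000000 of the cell), Mki67 and Top2a together below 75 CPM and Malat1 of at least 1000 CPM. The levels of these 5 genes are therefore descriptions of the choice. All the cells came from 1 group: muscle stem cells of the MyoD-KI genotype, kept for 5 days in serum-rich growth medium and then sorted by flow cytometry for high MyoD-tdTomato. Their RNA was profiled by 10x Genomics 3-prime droplet sequencing. The labels do not describe the knock-in allele further and give neither the number nor the age of the mice, and cells with low reporter signal were not analysed here. Sorting was on a reporter protein, whereas the values below are transcripts.

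Adult muscle regenerates from Pax7-positive stem cells, which lie quiescent beside the fibres until injury or culture activates them. Activated cells divide as myoblasts that express Myf5 and Myod1. To differentiate they turn on Myog, leave the cell cycle for good and turn on the sarcomere genes. In cultures of myoblasts some cells stop dividing, keep Pax7 and do not differentiate. They are known as reserve cells, and Notch signalling is among the pathways known to hold muscle stem cells undifferentiated.

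The 4 files carry replicate numbers but hold the same cells. Each pair shared between 5946 and 5965 barcodes, and for 99.8% to 100% of the members the best match in another file, set against 100 other barcodes, was the barcode of the same name. The files were counted as 1 sample (n = 1), so no comparison below has a test, and the 4 values given for a gene measure only how repeatably the libraries sampled the same cells. Each file held 62627341 to 68898900 UMIs. Members had a median of 9289 UMIs per file and 3.92% mitochondrial UMIs, against 11287 UMIs and 3.55% in the other 4881 kept cells.

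3 sets of cells served for comparison. The first were the 100 cells that met the same thresholds but had no Pax7 UMI (Pax7-zero cells, median 8038 UMIs per file). The next were 1201 cycling cells with Pax7 and low Myog (at least 75 CPM of Mki67 and Top2a, median 13134 UMIs). The last were all 4881 other kept cells, of which 1425 were late myocytes with at least 1000 CPM of Myog and 2000 CPM of Acta1. A further 100 non-cycling, Myog-low cells had 1 Pax7 UMI and belonged to neither the members nor the Pax7-zero cells.

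The members were a graded lot with respect to the choosing genes. They had between 2 and 28 Pax7 UMIs with a median of 5, and 110 of them were at the minimum of 2. Myog ranged from 0 to 397 CPM per cell with a median of 49.2, and 110 members had no Myog UMI. Mki67 and Top2a were both absent in 374 members. Pax7 itself (chromosome 4, 139737062 to 139833528, GENCODE M21 on GRCm38) stood at 149, 149, 155 and 137 CPM in the 4 files of the members and at 126 CPM in the cycling cells.

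The border of the group was not sharp along Pax7. Cells just inside the Pax7 minimum, with 2 UMIs, had 53.2 CPM of Pax7, 85.2 CPM of Notch3 and 407 CPM of Myod1. Those just outside, with 1 UMI, had 28.8, 76.9 and 428 CPM of the same genes. At the Mki67 and Top2a limit, 64 members with 50 to 75 CPM stood against 27 cells with 75 to 100 CPM. The replication gene Mcm3 was at 49.1 inside and 112 CPM outside, and the mitosis gene Ccnb1 at 35.2 and 19.7 CPM. Spp1, at 578 and 1241 CPM, was higher outside. At the Myog limit, 21 cells inside and 9 outside had 105 and 70.0 CPM of Notch3 and 547 and 765 CPM of Myod1. When the cells were chosen in 3 files, 514 to 537 met the rule, and 82.8% to 86.7% of the 600 were found again. In the file not used for that choice, Pax7 stood at 136 to 156 CPM in the chosen cells and at 25.6 to 34.7 CPM in cells that had shown no Pax7 UMI. Of those cells with no Pax7 UMI in 3 files, 19.1% to 25.4% had one in the file left out, so a zero can be a transcript that was missed.

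The markers that go with the name of the group set it apart from the mixed population more than from its nearest neighbours. Myf5, a myogenic determination factor, stood at 117, 115, 109 and 121 CPM in the 4 files of the members, at 111 to 124 CPM in the Pax7-zero cells and at 86.5 to 92.8 CPM in the cycling cells. The file values of the members and the Pax7-zero cells overlapped, and both lay above those of the cycling cells. The overlap with the Pax7-zero cells also held for Vcam1, an adhesion molecule of satellite cells, with 28.0 to 32.5 CPM in the members and 23.7 to 30.6 CPM in the Pax7-zero cells. Sdc4, a heparan sulphate proteoglycan of the cell surface, stood at 87.0 to 91.3 against 80.1 to 93.0 CPM. Against all other kept cells Myf5 was higher by 1.24 on the log2 scale of CPM plus 1 (95% counting interval 1.12 to 1.36), Vcam1 by 0.89 and Sdc4 by 0.80. Without cells of at least 1000 CPM of Acta1, skeletal muscle actin, which were 1786 of those others and 2 members, the difference of Myf5 was 0.74 and no longer past 2-fold.

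Spp1, which encodes the secreted matrix protein osteopontin, differed from these. It stood at 1199, 1201, 1154 and 1209 CPM in the members. The Pax7-zero cells had 761 to 809 CPM and the cycling cells 498 to 504 CPM, so the file values did not overlap. The log2 difference was 0.60 from the Pax7-zero cells, 1.25 from the cycling cells and 2.06 from all others. Most of this came from few cells: the median member had 245 CPM, the median Pax7-zero cell 165 and the median cycling cell 233.

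3 single transcripts known from quiescent satellite cells were near 0. Cd34, a sialomucin of the stem cell surface, stood at 0.364 to 1.17 CPM in the 4 files of the members. Calcr, the calcitonin receptor of quiescent cells, stood at 0.165 to 0.500 CPM, and Chrdl2 at 1.02 to 1.65 CPM. Apart from Chrdl2 against all other kept cells, which had 2.21 CPM, these counts were too few for a comparison. They do not stand for the longer lists, in which 4 of 23 genes of stem cell surface and identity and 2 of 27 linked to quiescence or reserve cells were under 1 CPM in the members. Of the 4 markers not used for the choice, only Spp1 differed 2-fold from the cycling cells and none from the Pax7-zero cells. Pax3, the paralogue of Pax7, stood at 13.5 to 16.4 CPM in the members, higher by 1.21 (0.89 to 1.54) than in all other kept cells.

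**Figure D1:**
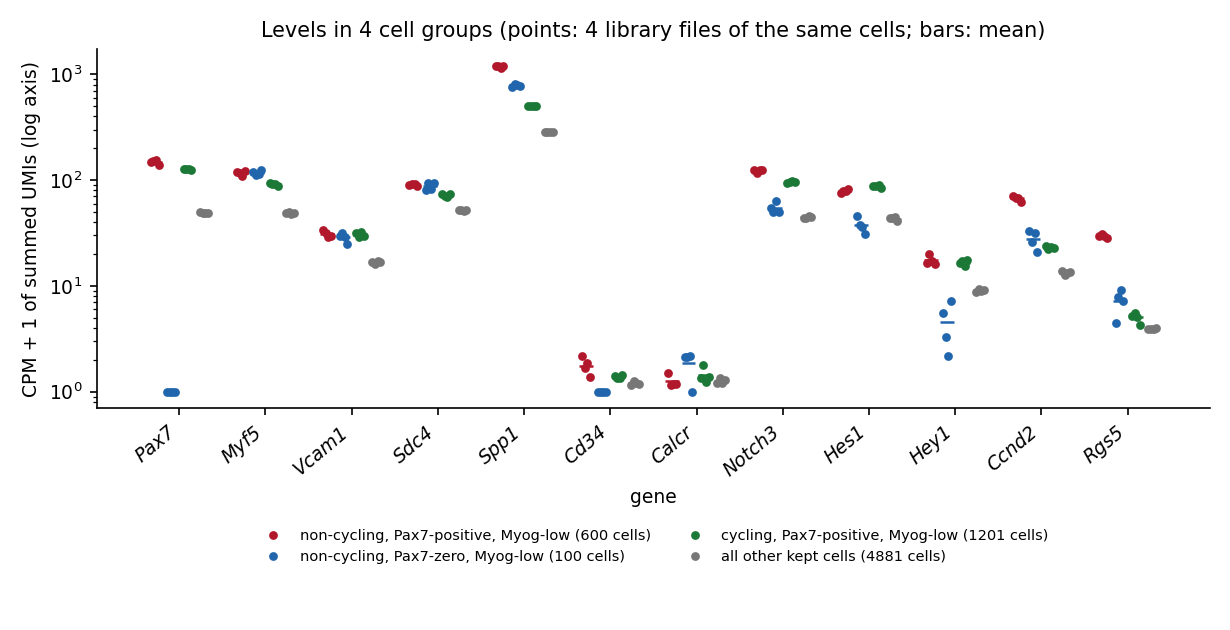
Level of 12 genes in CPM plus 1 (log axis) in the 600 members, 100 Pax7-zero, 1201 cycling and 4881 other kept cells, with 1 point per library file of the same cells and a bar at the mean. Points of Myf5, Vcam1 and Sdc4 overlap between members and Pax7-zero cells, whereas Notch3, Hes1, Hey1, Ccnd2 and Rgs5 of the members lie above them.

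Across all genes, a gene was called when the members differed at least 2-fold (log2 ratio of CPM plus 1 of at least 1 in size), with the same sign in all 4 files and at least 50 counts in both cell groups together. The 5 choosing genes were left out. Against the Pax7-zero cells, 236 of 9023 genes were higher (2.62%) and 51 lower (0.565%). Against the cycling cells, 285 of 11446 were higher (2.49%) and 649 lower (5.67%), and against all other kept cells 766 of 13128 were higher (5.83%) and 836 lower (6.37%). The median of all tested genes lay at 0.11, 0.04 and 0.12 on the log2 scale in the 3 comparisons. Relative to it, 156 genes were higher and 65 lower than in the Pax7-zero cells, 242 and 687 relative to the cycling cells, and 553 and 976 relative to all others. With the trimmed mean of M values as scaling, the split became 407 higher and 1100 lower against all others and 190 and 750 against the cycling cells. With median-ratio size factors it was 162 higher and 64 lower against the Pax7-zero cells and 530 and 983 against all others.

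The Pax7-zero comparison had the thinnest base. The 100 Pax7-zero cells held 853320 UMIs per file against 5860159 of the members. A gene low in the members could thus reach 50 counts only if it was high in the Pax7-zero cells. Genes high in the members could reach it through the members alone, with few or no counts in the Pax7-zero cells. The numbers of higher and lower genes in this comparison are therefore not to be weighed against each other. For 155 of the 236 higher genes and for all 51 lower ones the counting interval also excluded 0. Without replicate 1, 2 or 4 the higher genes numbered 151, 154 or 126, of which 122, 114 and 98 were among the 236. Without replicate 2 the lower genes numbered 28.

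Longer lists of the genes that mark these cells gave few calls against the Pax7-zero and the cycling cells. Of 18 tested genes of stem cell surface and identity, none passed 2-fold against the Pax7-zero or the cycling cells. Against all other kept cells Pax3 and Heyl of 19 were higher. Only Heyl was with the trimmed mean of M values as scaling, and neither was without the cells of high Acta1. Of 22 tested genes linked to quiescence or reserve cells, 5 were higher than in the Pax7-zero cells (Hes1, Hey1, Tenm4, Rbl2 and Col5a3, with Tenm4 lost under both of these settings) and 3 higher than in the cycling cells (Tenm4, Igfbp4 and Gadd45a), with none lower. Against all other kept cells 6 of 24 were higher and 3, Cdkn1c, Rb1 and Gadd45a, were lower. With the trimmed mean of M values 2 were higher and 3 lower, and without the cells of high Acta1 1 was higher and 1 lower. These lists were drawn up with earlier results of these data known. Their shares are to be read against all tested genes. Of those, 2.62%, 2.49% and 5.83% were higher than in the Pax7-zero, the cycling and all other kept cells, and 0.565%, 5.67% and 6.37% lower.

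**Figure D2:**
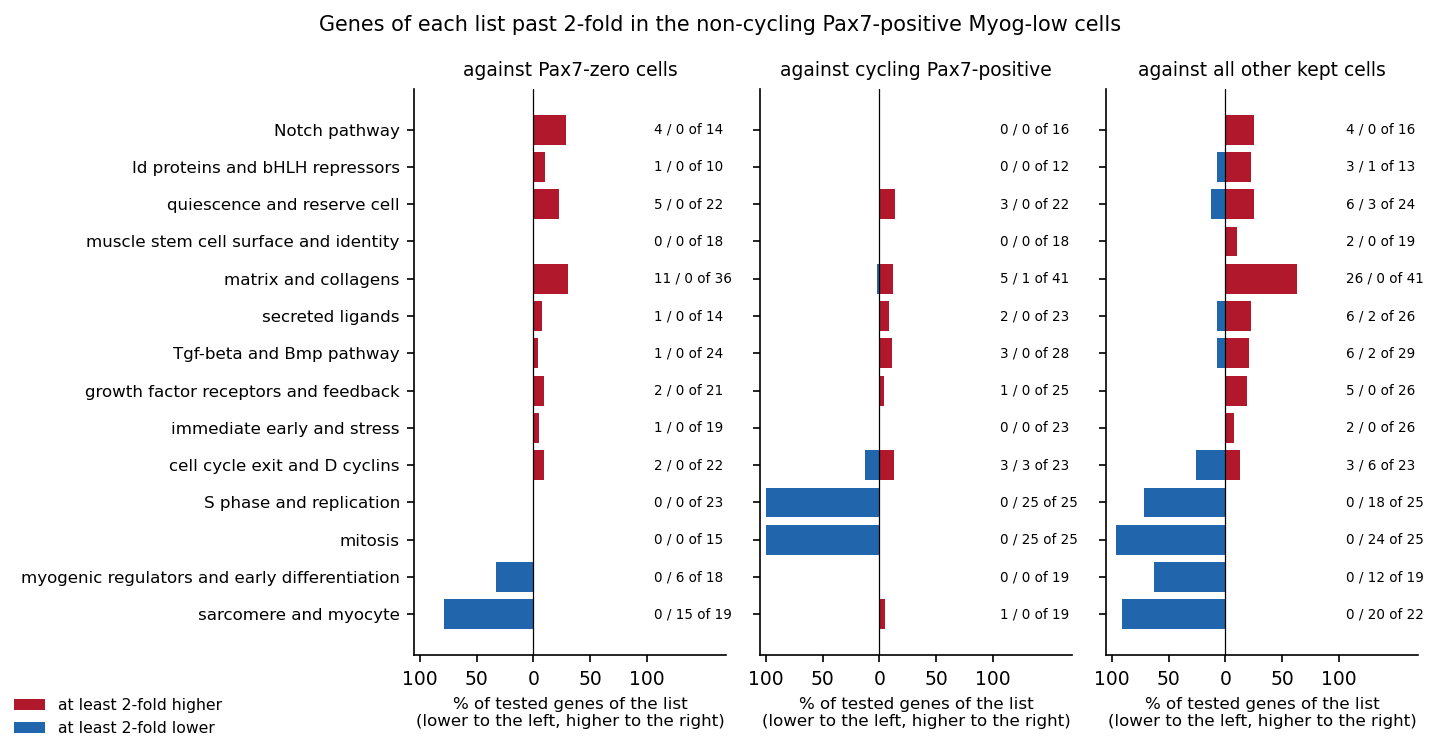
Percent of the tested genes of 14 lists that were at least 2-fold higher (red, to the right) or lower (blue, to the left) in the members, with the counts written as higher / lower of tested. S phase and mitosis genes are lower than in the cycling cells in 25 of 25 cases each, and sarcomere genes are lower in 15 of 19 against the Pax7-zero cells and in 0 of 19 against the cycling cells.

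Genes of DNA replication and mitosis, apart from the choosing genes Mki67 and Top2a, followed the split by cycling state. All 25 listed S phase genes and all 25 listed mitosis genes were lower in the members than in the cycling cells, with medians of -2.10 and -3.88. Of all tested genes 5.67% were lower in this comparison. Pcna, the replication clamp, stood at 41.1 against 164 CPM, and Cdk1, the kinase of mitotic entry, at 18.6 against 275 CPM. Esco2, a cohesin acetyltransferase of S phase, had the largest ratio among the genes lower than in the cycling cells, with 0.165 to 0.509 CPM against 73.2 CPM. Against the Pax7-zero cells, which the same thresholds kept free of cycling, none of 23 tested S phase genes and none of 15 mitosis genes passed 2-fold.

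Cyclin-dependent kinase inhibitors that rise in muscle differentiation were low in the members. Cdkn1a, the inhibitor p21, stood at 417, 411, 425 and 422 CPM in the members, at 560 to 601 CPM in the Pax7-zero cells and at 1245 to 1250 CPM in all other kept cells. The file values did not overlap, although single cells did: the median member had 243 CPM and the median Pax7-zero cell 269. The members lay 1.57 (1.51 to 1.63) below all other kept cells. Without the cells of high Acta1 that difference was -0.29. Cdkn1c, the inhibitor p57, showed 7.84 CPM against 85.2 CPM in all others, a difference of -3.32, or -2.19 without those cells. The cycling cells had still less Cdkn1a, 266 to 279 CPM.

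Of the D cyclins, which carry growth factor signals to the cell cycle, Ccnd2 alone was called in all 3 comparisons. It stood at 70.4, 66.0, 66.8 and 61.7 CPM, compared with 20.0 to 32.0 CPM in the Pax7-zero cells and 21.2 to 22.8 CPM in the cycling cells. Every file of the members exceeded every file of both, by 1.29 (0.68 to 1.91) and 1.54 (1.34 to 1.75) on the log2 scale. Ccnd1 at 354 CPM was higher than in all other kept cells by 1.21 and differed by less than 2-fold from the cycling cells at 301 CPM. That call was lost with the trimmed mean of M values (0.97) and without the cells of high Acta1 (0.66). Ccnd3 at 329 CPM passed 2-fold in none of the comparisons. Of 23 listed genes of this kind, 3 were higher and 3 lower than in the cycling cells, against 2.49% and 5.67% of all tested genes. Besides Ccnd2 the higher ones were the antiproliferative genes Btg2 (lost with the trimmed mean of M values) and Gadd45a, and the lower ones were the inhibitors Cdkn2c and Cdkn2d and the pocket protein gene Rbl1. Against all other kept cells 3 of 23 were higher (Cdkn2b, Ccnd1 and Ccnd2) and 6 lower (Cdkn1a, Cdkn1c, Cdkn2d, Rb1, Rbl1 and Gadd45a), against 5.83% and 6.37% of all tested genes. With the trimmed mean of M values 2 were higher and 9 lower, and without the cells of high Acta1 2 and 4.

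Notch receptors pass signals between touching cells, and their activation in satellite cells is known to raise the repressor genes Hes1, Hey1 and Heyl and to hold back differentiation. Of 14 tested genes of the pathway, 4 were at least 2-fold higher in the members than in the Pax7-zero cells, against 2.62% of all tested genes. None was lower, against 0.565%, and because of the count minimum these counts are not to be weighed against each other. The median was 0.80, against 0.11 for all tested genes. The 4 higher genes were Notch3, Hes1, Hey1 and the coactivator gene Maml1, whose counting interval just reached 0. Against the cycling Pax7-positive cells none of 16 passed 2-fold in either direction, while 2.49% of all tested genes were higher and 5.67% lower. Against all other kept cells 4 of 16 were higher, where 5.83% of all tested genes were higher and 6.37% lower. With the trimmed mean of M values as scaling 3 were higher and 2 lower, and 1 was higher without cells of at least 1000 CPM of Acta1.

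Notch3, a receptor (chromosome 17, 32120820 to 32166852), stood at 123, 116, 124 and 123 CPM in the members and at 53.8, 48.8, 61.8 and 48.7 CPM in the Pax7-zero cells. Every file of the members was above every file of the Pax7-zero cells, by 1.18 (0.75 to 1.63). The cycling cells lay between at 93.7 to 96.6 CPM. Notch1 and Notch2 at 19.4 and 52.0 CPM were 0.82 and 0.69 above the Pax7-zero cells, short of 2-fold. Hes1, a direct target, stood at 74.9, 77.6, 78.2 and 82.1 CPM against 30 to 44.6 CPM in the Pax7-zero cells, a difference of 1.09 (0.56 to 1.63), while the cycling cells had 83.0 to 89.1 CPM. Hey1 stood at 15.1 to 19.2 CPM against 1.17 to 6.25 CPM, a difference of 2.08 (0.59 to 3.37) that rests on few counts in the Pax7-zero cells. Heyl, at 32.3 to 37.1 against 13.7 to 22.2 CPM, reached 0.96.

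The ligands did not share this pattern. Dll1 was at 11.1 CPM in the members, 17.6 CPM in the Pax7-zero cells and 19.9 CPM in all others, and neither difference passed 2-fold. Jag1 at 7.64 CPM was higher than in all other kept cells by 1.40 (0.99 to 1.84) and differed by 0.61 (-0.67 to 1.99) from the Pax7-zero cells. In cells thinned to 5000 UMIs per file, which left 544 members, 77 Pax7-zero cells and 1179 cycling cells, Notch3 was found in 42.4%, 21.8% and 34.0%. The late myocytes showed it in 3.26% of cells (8.21% before thinning), and the members in 58.8% before thinning.

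Within the non-cycling, Myog-low cells, some Notch genes also varied with the number of Pax7 UMIs. From cells with none over those with 1, 2 to 3, 4 to 7 and 8 or more, Notch3 stood at 53.3, 76.9, 97.6, 119 and 160 CPM. Hes1 followed with 36.5, 50.6, 60.9, 77.9 and 103 CPM. The median depth of these classes was 8038, 8796, 8950, 9813 and 8952 UMIs per file, so it also increased up to the class of 4 to 7. The part of depth in this order was not tested. Heyl at 17.9, 31.3, 25.3, 32.5 and 54.2 CPM and Hey1 at 3.56, 9.80, 14.3, 13.97 and 23.5 CPM stood highest in the last class but did not keep the order in between. Myf5 stood between 102 and 134 CPM and Vcam1 between 26.3 and 32.6 CPM, with no such order. Myod1 went the other way, from 562 CPM in Pax7-zero cells to 321 CPM in those with 8 or more. Among the members alone, 33 of 7253 genes were higher (0.455%) and 10 lower (0.138%) in the 142 cells with 8 or more Pax7 UMIs than in the 225 with 2 to 3. The higher ones included Gucy1a1, a subunit of the nitric oxide receptor guanylate cyclase, at 31.6 against 7.67 CPM, and Heyl at 54.2 against 25.3 CPM.

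**Figure D3:**
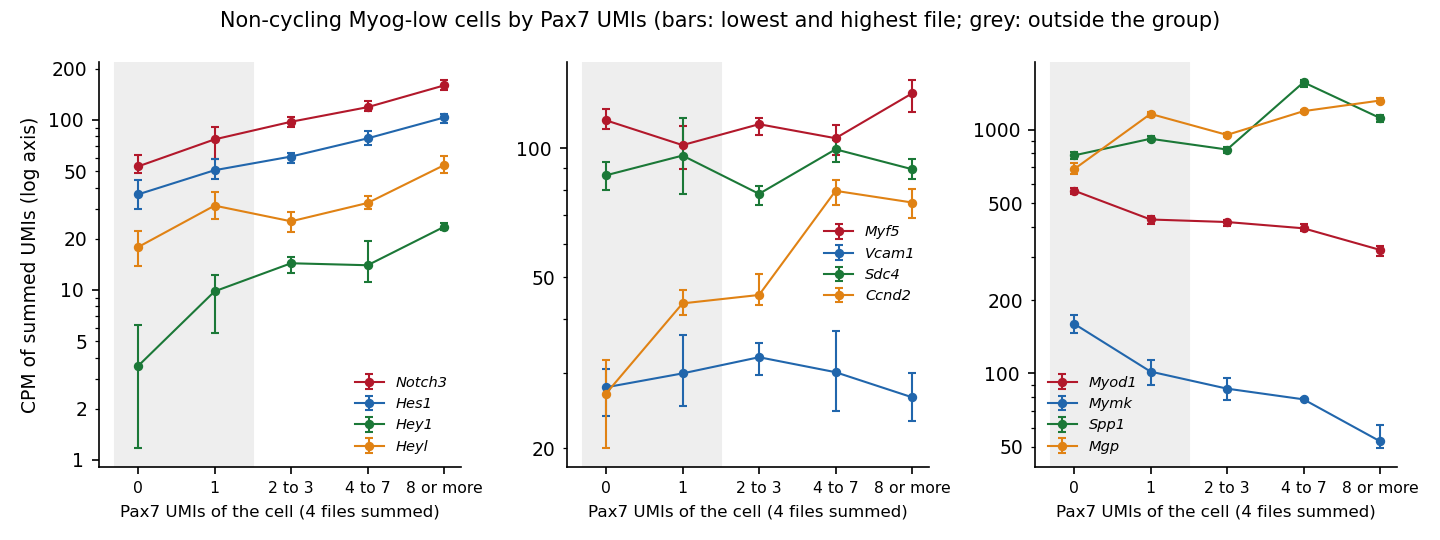
Level of 12 genes in CPM (log axis) in non-cycling Myog-low cells by their Pax7 UMIs summed over 4 files, where points are means, bars span the lowest and highest file and grey marks cells outside the group. Notch3 and Hes1 increase with each step to 160 and 103 CPM, Myf5 and Vcam1 show no order, and Myod1 and Mymk decrease.

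Differentiation genes were lower in the members than in the Pax7-zero cells, but the size rested on a few cells. Of 19 tested sarcomere genes 15 were lower, and of 18 early differentiation genes 6 were lower, with none higher in either list. Of all tested genes 0.565% were lower and 2.62% higher in this comparison. Acta1, skeletal muscle actin, stood at 95.4, 102, 99.6 and 93.3 CPM in the members and at 708 to 798 CPM in the Pax7-zero cells, a difference of -2.95 (-3.12 to -2.79). The median cell of both groups was alike, with 63.1 and 59.0 CPM. The 10 Pax7-zero cells with the most Acta1 held 86.2% of its UMIs, and for Myh3, the embryonic myosin heavy chain, 93.9%.

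Acta1 reached 1000 CPM in 6 Pax7-zero cells, 2 members and 3 cycling cells. Without those cells Acta1 stood at 88.1 CPM in the members and 102 CPM in the Pax7-zero cells, and the genes lower than in the Pax7-zero cells dropped from 51 to 8. Of the sarcomere genes 3 of 18 and of the early differentiation genes 1 of 18 were then still lower. Higher genes against the Pax7-zero cells numbered 206 in place of 236, with 184 shared, and the 4 Notch genes remained 4 of 14.

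Myod1, the gene of the sorted reporter, differed in the median cell as well as in the sum. Its level was 377, 394, 382 and 385 CPM in the members against 547 to 576 CPM in the Pax7-zero cells and 325 to 328 CPM in the cycling cells. The file values did not overlap, but the differences of -0.55 and 0.24 stayed under 2-fold. The median member had 292 CPM, the median Pax7-zero cell 566 and the median cycling cell 255. Although the sort was for high reporter, 52 of the 600 members had no Myod1 UMI in any file. Mymk, the fusion protein myomaker, stood at 74.9 CPM in the members and 160 CPM in the Pax7-zero cells, or 73.5 and 104.5 CPM without the cells of high Acta1.

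**Figure D4:**
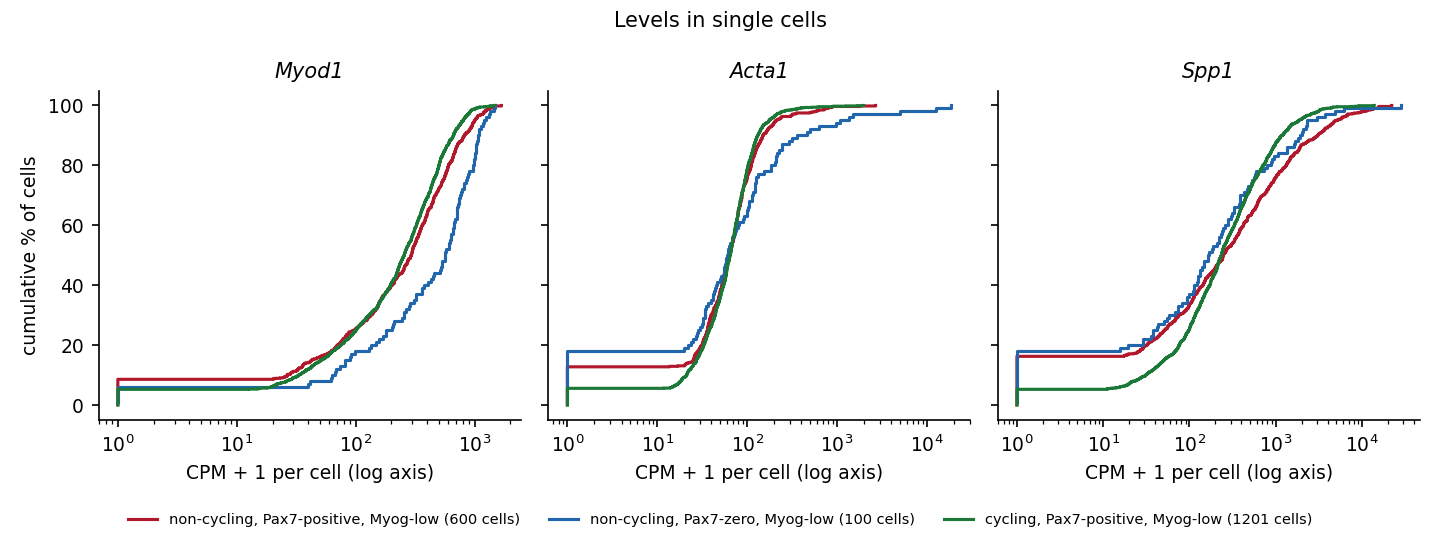
Cumulative percent of cells against CPM plus 1 per cell (log axis) for Myod1, Acta1 and Spp1 in members, Pax7-zero and cycling cells. The Myod1 curve of the Pax7-zero cells lies to the right over most of its range (median 566 against 292 CPM), whereas their Acta1 curve departs only in the highest cells, and Spp1 of the members reaches 22183 CPM.

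Many extracellular matrix genes were higher in the members than in all other kept cells. Against all other kept cells 26 of 41 tested matrix genes were higher and none lower, where 5.83% of all tested genes were higher and 6.37% lower (median 1.17, against 0.12 for all genes). With the trimmed mean of M values as scaling 16 of 41 were higher, and 13 without the cells of high Acta1, with 1 lower. Against the Pax7-zero cells 11 of 36 were higher and none lower (8 under the other scaling, 7 without the cells of high Acta1), and against the cycling cells 5 of 41 were higher and 1, the collagen crosslinker Loxl2, lower. Of all tested genes, 2.62% were higher and 0.565% lower than in the Pax7-zero cells, and 2.49% higher and 5.67% lower than in the cycling cells.

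Col6a1, a chain of the microfibrillar collagen VI, was the 1 matrix gene of the list called in all 3 comparisons. It stood at 54.9, 57.6, 55.6 and 51.9 CPM, compared with 12.5 to 20.0 CPM in the Pax7-zero cells and 22.4 to 25.1 CPM in the cycling cells, differences of 1.80 (1.03 to 2.64) and 1.14 (0.94 to 1.35). Col6a2, Col6a3, the fibrillar collagen gene Col1a2, the basement membrane collagen gene Col4a1 and fibronectin Fn1 were also higher than in the Pax7-zero cells, by 1.44, 1.80, 1.61, 1.04 and 1.01. The calls of Col4a1 and Fn1 were lost both with the other scaling and without the cells of high Acta1. Against the cycling cells the other higher genes were the laminin chain Lama2, the thrombospondin Thbs2, the lysyl oxidase Loxl1 and Sulf1, an editor of heparan sulphate, of which Lama2 and Loxl1 were lost with the other scaling. Mgp, matrix Gla protein, stood at 1128 to 1147 CPM against 656 to 733 and 590 to 605 CPM, which did not overlap but were under 2-fold.

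Few receptors and secreted factors differed 2-fold from the Pax7-zero cells. Egfr, the receptor of epidermal growth factor, was at 28.6 CPM against 7.61 CPM in the Pax7-zero cells (1.82, interval 0.76 to 2.93). Pdgfrb was at 10.0 against 2.31 CPM (1.82, interval 0.16 to 3.14), and Angpt1, an angiopoietin, at 68.2 against 20.4 CPM (1.72, interval 1.02 to 2.42). In this comparison 2 of 21 growth factor receptor genes, 1 of 24 Tgf-beta and Bmp genes and 1 of 14 ligand genes were higher, and none was lower, against 2.62% of all genes higher. The Tgf-beta gene, Tgfbr3, was lost with the trimmed mean of M values and without the cells of high Acta1, and with that scaling 1 ligand gene, Sema3d, was lower.

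Against the cycling cells 1 of 25, 3 of 28 and 2 of 23 genes of these lists were higher and none lower, against 2.49% of all genes higher. The co-receptor Tgfbr3 stood at 53.2 against 14.7 CPM, the orphan receptor Ror1 at 310 against 118 CPM, the ligand Tgfb2 at 346 against 163 CPM (lost with the trimmed mean of M values), Igf1 at 23.8 against 6.19 CPM and Wnt4 at 13.5 against 4.65 CPM. Against all other kept cells 5 of 26, 6 of 29 and 6 of 26 were higher (1 of 26, 2 of 28 and 2 of 25 without the cells of high Acta1), and none, 2 and 2 lower. Of all tested genes 5.83% were higher and 6.37% lower. With the trimmed mean of M values as scaling 2 of 26, 4 of 29 and 3 of 26 were higher, and again none, 2 and 2 lower. The 2 lower Tgf-beta genes were myostatin, Mstn, and its inhibitor Fst, the latter at 14.9 against 48.0 CPM. Lists with little to show against the Pax7-zero cells were the Id proteins and related repressors (1 of 10 higher, Id4), immediate early and stress genes (1 of 19 higher, Ddit4) and interferon genes (none of 6), with none lower.

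Markers of other cell types were mostly near 0. Of 10 fibroblast markers 8 were under 1 CPM in the members, among them Pdgfra at 0.907, Dcn at 0.849 and Lum with 0 UMIs in every file, which allows up to 0.512 CPM at 3 counts in a file. The summed fibroblast list still lay at 278 to 293 CPM in the members, 186 to 214 CPM in the Pax7-zero cells and 127 to 129 CPM in all others, nearly all of it Col3a1 and Ly6a. All 9 immune markers were under 1 CPM, and the endothelial and Schwann lists summed to 6.11 to 7.82 and 5.79 to 7.97 CPM. The tenocyte list summed to 64.0 to 70.4 CPM, under the 80.5 to 91.0 CPM of the Pax7-zero cells, and 61.6 to 63.5 CPM in the cycling cells. The adipocyte list summed to 24.8 to 26.0 CPM in the members, 13.6 to 28.0 CPM in the Pax7-zero cells, 15.8 to 17.1 CPM in the cycling cells and 15.4 to 16.3 CPM in all others. Fabp4, a fatty acid binding protein gene of that list, was higher at 8.59 CPM than in the cycling cells at 3.37 and all others at 2.50 CPM, and 3 of the 5 adipocyte markers were under 1 CPM.

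Of the pericyte and smooth muscle list, Rgs5, Notch3 and Pdgfrb were higher in the members than in the Pax7-zero cells, while Acta2 was at 582 against 927 CPM and 3 of 10 markers were under 1 CPM. The list summed to 766 to 791 CPM in the members, 1013 to 1044 CPM in the Pax7-zero cells, 562 to 574 CPM in the cycling cells and 1602 to 1618 CPM in all others. The part of other cell types in these differences was not tested.

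Rgs5, a regulator of G protein signalling (chromosome 1, 169655501 to 169695813), had the largest ratio among the genes higher than in the cycling cells and among those higher than in all other kept cells. It stood at 28.6, 29.8, 28.8 and 27.7 CPM in the members, at 3.43 to 8.17 CPM in the Pax7-zero cells and at 3.29 to 4.60 CPM in the cycling cells. All 4 files of the members lay above all files of both, with folds on CPM plus 1 corresponding to 2.10 (0.95 to 3.30) and 2.57 (2.20 to 2.91) on the log2 scale. Rgs5 did not follow the border of the group: the 100 cells with 1 Pax7 UMI had 27.9 CPM, as much as the members, whereas the 110 members with 2 UMIs had 14.5 CPM. After thinning, 7.77% of the members had an Rgs5 UMI (5.66% to 10.3%), compared with 1.95%, 1.80% and 0.396% of Pax7-zero, cycling and late myocyte cells. Before thinning these shares were 11.7%, 4%, 3.93% and 0.702%.

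35 genes were higher in all 3 comparisons, which share the members' own cells, and none was lower in all 3. They amount to 14.8% of the genes higher than in the Pax7-zero cells and 12.3% of those higher than in the cycling cells. Besides Rgs5, Ccnd2, Tgfbr3 and Col6a1 they included Pde7b, a phosphodiesterase of cyclic AMP, at 103 CPM in the members and 50.4, 20.2 and 15.4 CPM in the Pax7-zero, cycling and other cells. The transcription factor gene Sox5 stood at 58.4, 27.2, 23.4 and 11.2 CPM, and the apolipoprotein gene Apoe at 9.45, 3.88, 3.29 and 2.75 CPM. Hpgd, which degrades prostaglandins, stood at 10.2, 1.81, 2.62 and 1.62 CPM, and Thsd4, a microfibril protein gene, at 16.1, 1.75, 7.42 and 3.21 CPM. The interval against the Pax7-zero cells reached below 0 for Apoe.

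Other genes were higher than in cycling cells without differing 2-fold from the Pax7-zero cells, which met the same limit on Mki67 and Top2a. Ogn, the matrix proteoglycan osteoglycin, stood at 282, 278, 271 and 264 CPM in the members and 59.0 to 61.8 CPM in the cycling cells, but at 345 to 372 CPM in the Pax7-zero cells. The ubiquitin ligase gene Fbxo32 showed 50.6, 10.5 and 52.0 CPM in the same order, and Dio2, an enzyme that activates thyroid hormone, 13.1, 2.11 and 14.9 CPM. The long non-coding RNA Malat1, 1 of the choosing genes, was at 13870 CPM in the members, 7096 CPM in the cycling and 9229 CPM in the Pax7-zero cells.

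Among the 35 genes was Dnm3os, a non-coding gene antisense to Dnm3 (ENSMUSG00000078190, chromosome 1, 162217623 to 162225550, plus strand) that holds the hairpins of Mir199a-2 and Mir214. It stood at 42.6, 47.8, 44.8 and 46.9 CPM in the members, 18.3 to 25 CPM in the Pax7-zero cells and 18.2 to 21.6 CPM in the cycling cells, with no overlap. The muscle host gene Gm28653 (chromosome 1, 20669882 to 20684298, plus strand), which holds Mir206 and Mir133b, had 386 to 420 CPM in the members, 646 to 704 CPM in the Pax7-zero cells, 233 to 239 CPM in the cycling cells and 840 to 857 CPM in all others. Like Dnm3os it was thus above the cycling cells (0.76, under 2-fold), but below the other cells. Both are shown because Dnm3os was called in all 3 comparisons and Gm28653 holds microRNAs of muscle, and they were picked after their values were seen. The mature sequences, from RefSeq on GRCm38.p6, carry the seed (bases 2 to 8) in capitals, and no seed is shared between them.
mmu-miR-199a-5p: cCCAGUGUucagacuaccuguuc
mmu-miR-199a-3p: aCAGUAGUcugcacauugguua
mmu-miR-214-3p: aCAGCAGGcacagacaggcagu
mmu-miR-206-3p: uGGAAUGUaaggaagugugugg
mmu-miR-133b-3p: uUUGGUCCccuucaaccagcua
The counts are of polyadenylated host transcripts, and mature microRNAs were not measured. Of 29 non-coding host genes tested against all other kept cells, 8 were higher and 4 lower, against 5.83% and 6.37% of all tested genes. The lower ones included Meg3, Rian and Mirg of the imprinted cluster on chromosome 12. Against the Pax7-zero cells 3 of 17 were higher, against 2.62% of all tested genes. If reads were counted without regard to strand, those of Dnm3os and Dnm3 could not be told apart.

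Members also differed among themselves along Myod1. In the 52 members with no Myod1 UMI, 269 with 1 to 11 and 279 with 12 or more, median depth was 7124, 7588 and 11107 UMIs per file, so these classes follow depth as well. Between the last and the first class 235 of 7335 genes were higher (3.2%) and 96 lower (1.31%). Gucy1a1 stood at 66.5, 32.5 and 1.60 CPM, Heyl at 89.6, 55.2 and 15.6 CPM, Egfr at 82.7, 42.6 and 12.8 CPM and Col6a1 at 144, 76.1 and 30.3 CPM. Gm28653 stood at 20.6, 163 and 602 CPM, and Dll1, the Notch ligand, at 1.26, 3.89 and 17.1 CPM. Heyl, Egfr and Col6a1 thus stood highest in members with the least Myod1, and Dll1 in those with the most, while Hes1 at 74.2, 89.0 and 71.6 CPM showed no such order.

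Ordering the members by Myod1 CPM, a choice made after the values were seen, gave 3 classes of 200 cells with median depths of 7777, 9448 and 10700 UMIs. Between the highest and the lowest class 97 of 7517 genes were higher (1.29%) and 108 lower (1.44%). Gucy1a1 stood at 41.3, 16.4 and 0.560 CPM, Col5a3, a chain of collagen V, at 38.6, 12.3 and 2.79 CPM and Mgp at 1860, 1242 and 501 CPM. Notch3 stood at 168, 128 and 80.3 CPM, while Hes1 at 83.9, 92.2 and 61.6 CPM and Ccnd2 at 66.1, 70.6 and 62.6 CPM hardly followed. Pdlim3, an actinin-binding protein gene, stood at 11.3, 24.0 and 64.1 CPM and Rbm24, a muscle splicing regulator, at 73.3, 162 and 322 CPM.

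A like order appeared for most genes followed here among the cycling Pax7-positive cells, split the same way into 401, 400 and 400 cells with median depths of 11560, 13753 and 14966 UMIs. There 66 of 10049 genes were higher (0.657%) and 175 lower (1.74%) in the highest class. Gucy1a1 stood at 35.2, 8.23 and 1.52 CPM, Mgp at 1041, 538 and 304 CPM and Gm28653 at 65.9, 240 and 365 CPM. Rgs5 was the exception: it stood at 18.7, 19.5 and 44.4 CPM over the classes of the members, a difference of 1.22 (0.64 to 1.80), and at 5.52, 4.09 and 2.80 CPM over those of the cycling cells.

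**Figure D5:**
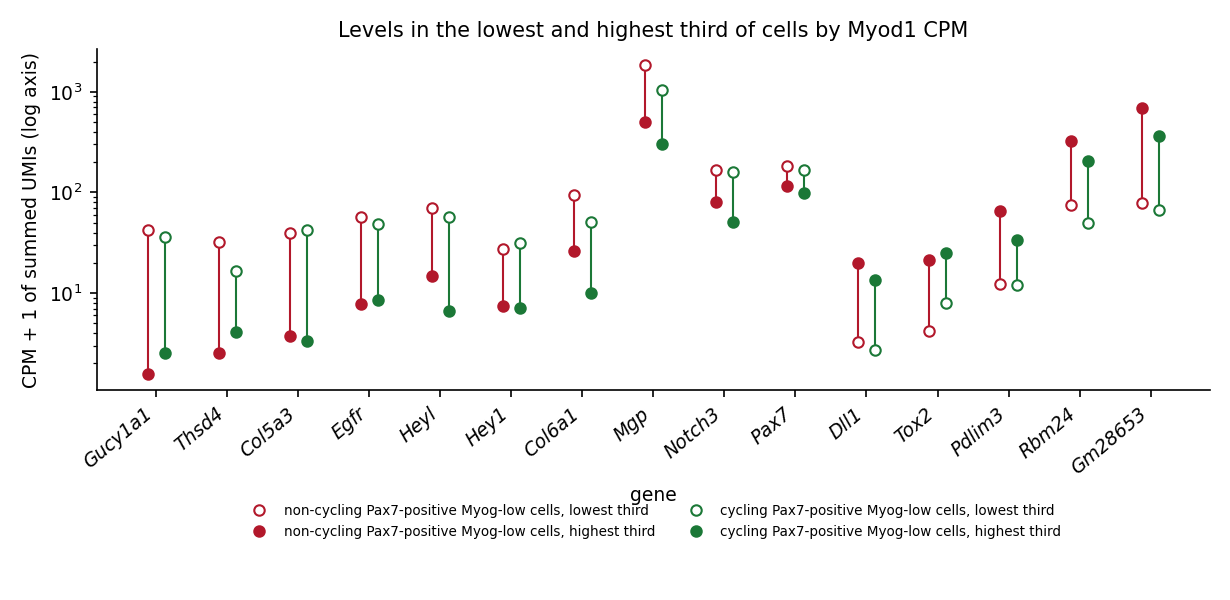
Level of 15 genes in CPM plus 1 (log axis) in the cells with the lowest (open) and highest (filled) Myod1 CPM, 3 classes of 200 members in red and 3 of 400 or 401 cycling cells in green. Gucy1a1 to Pax7 are lower and Dll1 to Gm28653 higher in the highest class, in members and in cycling cells alike.

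Spp1 was concentrated in few members. The 60 cells with the most Spp1 held 63.0% of its UMIs, the median member had 245 CPM and 98 members had none. A like concentration held in the Pax7-zero cells, where 10 cells had 67.4% of the Spp1 UMIs. Those 60 cells had 6812 CPM of Spp1 against 491 CPM in the other 540, at a median depth of 10180 and 9157 UMIs per file. In them 79 of 8715 genes were higher (0.906%) and 227 lower (2.6%). The higher ones included Areg, a ligand of the epidermal growth factor receptor, at 56.7 against 9.90 CPM, Timp1, an inhibitor of matrix proteases, at 731 against 171 CPM, and Ccnd2 at 163 against 54.1 CPM.

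The lower ones included contractile genes. Tnnt1, slow troponin T, stood at 77.8 against 478 CPM, Ttn, titin, at 173 against 795 CPM and Gm28653 at 105 against 436 CPM. Pax7 at 142 against 148 CPM and Myf5 at 105 against 117 CPM hardly differed between the Spp1-rich and the other members.

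Members with and without a Myog UMI were also compared. Myog is a choosing gene capped by the rule, and a zero can be a transcript that was missed. The number of genes called here therefore does not measure how far the members vary with Myog. Between the 490 members with a Myog UMI and the 110 without, 18 of 8715 genes were higher (0.207%) and 5 lower (0.0574%), at median depths of 9764 and 7537 UMIs. Tox2, a transcription factor gene, at 12.1 against 2.82 CPM and Dok7, an adaptor of the neuromuscular junction, at 13.95 against 3.86 CPM were higher. The protocadherin gene Pcdh15 at 19.6 against 57.4 CPM, Gucy1a1 at 14.9 against 31.4 CPM and Egfr at 24.5 against 50.8 CPM were lower. Members near the Myog limit differed from the whole group. The 21 members with 300 to 400 CPM of Myog had 458 CPM of Spp1, 131 of Mymk and 547 of Myod1. All members together had 1154 to 1209, 71.6 to 77.7 and 377 to 394 CPM over the files. Notch3 lay closer, at 105 against 116 to 124 CPM.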

How the data were processed

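The deposited matrices hold unnormalised UMI counts. Per the file headers they come from Cell Ranger 7.1.0, whereas the submitters' processing notes name Cell Ranger 3.1.0 and the builds mm10 and GRCm39 with no role. Which build was counted, and whether intronic reads were, is not given in the sources used here. Genes were placed on GRCm38 by looking up their Ensembl identifiers in GENCODE M21, which held 99.6% of 32285. Of 5944 barcodes common to the 4 files, 5481 were kept because, averaged over files, they had 1000 genes or more and mitochondrial UMIs below 10%. Counts were summed per file and cell group, scaled to CPM and averaged over the 4 files. Intervals are exact 95% Poisson, binomial or conditional binomial intervals at the mean count of 1 file and cover counting error only. Scrublet in scanpy 1.11.5 marked 0 of 5481 cells and so did not work, and no cell was removed as a doublet. The scripts were tested on simulated data. Genes were named as the 10 highest and 10 lowest ratios per comparison, the 5 highest and lowest per class within the group, and examples from gene lists of pathways and cell types. The members and lists were chosen with earlier results of these data known. Settings varied were the cell filters, the thresholds of the rule, scaling, count minimum, pseudocount, thinning and leaving out each file. The cells of high Acta1, the classes of Myod1 CPM and of Spp1, the interval rule and the centring on the median were added after seeing the data.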

Additional observations from a re-analysis of the deposited data

Results flagged for a closer look

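Of 25 gene levels compared over the 4 files of the members, 1 stood out by the distance of 1 file from the others. Notch3 was at 116 CPM in replicate 2 and at 123 to 124 CPM in the other files, all within the counting interval of 113 to 131 CPM. Chance alone marks about 5% of such sets of 4.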

How the results depend on the processing

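No paired analysis was possible because the labels give 1 group and the 4 files hold the same cells. Of 2108 log2 ratios recomputed for the named genes, 1770 moved by less than the error of the count and 338 moved by more. None of the called genes changed sign, and changes of sign among the genes not called were not counted. The share of kept cells, 10.9%, became 6.84% with at least 4 Pax7 UMIs, 7.35% with the rule on thinned cells, 9.80% with Myog under 200 CPM, 8.06% with Mki67 and Top2a under 25 CPM, 16.2% with cells of high Acta1 left out, and 9.38% to 9.80% with 1 file left out. Against the Pax7-zero cells, the 236 higher genes became 96 with the rule on thinned cells, 428 and 63 with at least 20 and 200 counts, 78 with a pseudocount of 5 CPM, 125 when cells were chosen in 3 files and measured in the other, 155 where the interval had to exclude 0, 156 relative to the median, and 126 to 178 with 1 file left out. The 51 lower genes became 26 with under 5% mitochondrial UMIs, 20 with the rule on thinned cells, 25 with Myog under 200 CPM, 79 and 17 with at least 20 and 200 counts, 8 without the cells of high Acta1, and 28 to 48 with 1 file left out. Against all other kept cells, 766 higher genes became 407 with the trimmed mean of M values, 315 with a pseudocount of 5 CPM and 320 without the cells of high Acta1, and 836 lower genes became 539 with that pseudocount. Against the cycling cells, 285 higher genes became 150 with the rule on thinned cells, 165 with at least 200 counts and 114 with a pseudocount of 5 CPM. Stricter count minimums and pseudocounts by construction call fewer genes, and the cause of the other changes was not tested. Depth limits most the 100 Pax7-zero cells, where genes under about 10 CPM have intervals spanning several fold.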
